A study of Mus musculus with 4 samples.

Results

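The autosomal chemokine and chemokine receptor genes were examined for DNA methylation in hippocampal microglia of mice after fetal growth restriction (FGR). Members were the genes whose symbol is Ccl, Cxcl, Ccr or Cxcr followed by a number alone, together with Cx3cl1, Xcl1, Xcr1, Ackr1, Ackr2 and Ackr3. Ccr2 and Cx3cr1 were set aside by that rule, Cxcr3 because it lies on chromosome X, and 11 symbols with letters after the number, such as Ccl21a, because the number was not the end of the symbol. This gave 52 genes of 32881 autosomal genes in the annotation that were compared, with 34 ligands (19 CC, 13 CXC and 2 others) and 18 receptors (9 CC, 5 CXC, Xcr1 and 3 atypical receptors). Each gene span was taken with 2000 bp added on either side, and was measured in all 4 libraries for 51 of the 52 members. The exception was Ccl19, a Ccr7 ligand of lymphoid tissue, for which no CpG was listed in any library.

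Chemokines are small secreted proteins that draw immune cells along a gradient, and they act through G-protein-coupled receptors on the surface of the responding cell. Atypical receptors bind chemokines without G-protein signalling and clear or redistribute them. Microglia, the resident macrophages of the brain, release CC chemokines such as Ccl3 and Ccl4 when activated, while Cxcl12 and Cx3cl1 are constitutive signals of brain tissue. Methylation of cytosine in CpG dinucleotides is usually high across mammalian genes and low at CpG-rich gene starts.

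The study compared 2 libraries from FGR mice with 2 libraries from control mice, by whole-genome bisulfite sequencing at 3 weeks after birth. All 4 libraries came from Tmem119-tdTomato+/- mice, in which a red fluorescent reporter is tied to a microglial gene, so the controls carry the reporter allele too. Whether the replicates were separate animals or pools is not stated, and p-values therefore measure only the spread between these libraries, which may be technical. With 2 libraries against 2, an exact two-sided permutation test of any single value cannot go below p = 0.333. FGR replicate 1 was the shallowest library, with 49563150 summed reads at listed cytosines, and FGR replicate 2 the deepest, with 91762720, while the controls had 62202250 and 66971740. Coverage of the same CpG in all 4 libraries was reached for 8.89% of the 15954515 autosomal CpGs seen, so libraries were mostly read at different CpGs. As a check of the cell type, 9 measured microglial marker gene spans had a median level of 40.9%, against 66.7% for neuronal, 77.8% for astrocyte, 80.8% for oligodendrocyte, 80.4% for endothelial, 75.5% for lymphocyte and 80.6% for border macrophage and monocyte markers. The lists overlapped in part at single genes. Microglial spans ranged from 24.4% to 69.8%, neuronal from 31.6% to 73.8%, astrocyte from 56.9% to 79.3% and oligodendrocyte from 9.42% to 83.4%. Endothelial spans ranged from 37.2% to 83.1%, lymphocyte from 73.3% to 77.4%, and border macrophage and monocyte from 69.8% to 82.1%. None of these marker spans was called different between FGR and control libraries.

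Promoter sequences of 6 members are shown because they bracket the range of methylation in the family. They come from the RefSeq promoter table (GRCm38.p6, which is mm10), and run 5′ to 3′ along the gene from 250 bases before to 50 bases after the annotated start, with every CpG in capitals. Cxcr4 and Cxcl9 were the only members with at least 3 promoter CpGs listed in at least 3 libraries, and the other 4 were chosen after their values were seen. In order, they are the promoters of Cxcr4 (chr1:128592250-128592549, minus strand), the receptor for Cxcl12, of Ccl6 (chr11:83593038-83593337, minus strand), a CC ligand of mouse macrophages, of Ccl12 (chr11:82101595-82101894, plus strand), a monocyte attractant, of Cxcl10 (chr5:92348840-92349139, minus strand) and Cxcl9 (chr5:92328030-92328329, minus strand), both interferon-induced Cxcr3 ligands, and of Ccr9 (chr9:123766961-123767260, plus strand), the gut-homing receptor for Ccl25.
Cxcr4: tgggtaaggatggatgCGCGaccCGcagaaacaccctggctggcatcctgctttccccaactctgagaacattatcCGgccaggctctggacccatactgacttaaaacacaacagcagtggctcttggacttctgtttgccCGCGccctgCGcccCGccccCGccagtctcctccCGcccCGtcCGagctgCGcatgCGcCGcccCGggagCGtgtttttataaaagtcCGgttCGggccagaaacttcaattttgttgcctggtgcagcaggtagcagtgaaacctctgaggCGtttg
Ccl6: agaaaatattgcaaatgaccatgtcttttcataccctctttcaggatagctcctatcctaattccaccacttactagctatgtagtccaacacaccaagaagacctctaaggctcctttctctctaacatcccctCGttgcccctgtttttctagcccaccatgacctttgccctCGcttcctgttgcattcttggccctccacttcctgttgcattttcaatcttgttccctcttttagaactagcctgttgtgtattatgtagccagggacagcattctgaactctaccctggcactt
Ccl12: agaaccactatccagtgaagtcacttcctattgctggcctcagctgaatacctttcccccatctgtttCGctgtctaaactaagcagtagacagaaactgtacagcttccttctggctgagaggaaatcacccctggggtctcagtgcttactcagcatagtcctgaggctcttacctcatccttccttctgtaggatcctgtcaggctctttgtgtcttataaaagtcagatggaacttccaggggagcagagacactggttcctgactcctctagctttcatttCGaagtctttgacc
Cxcl10: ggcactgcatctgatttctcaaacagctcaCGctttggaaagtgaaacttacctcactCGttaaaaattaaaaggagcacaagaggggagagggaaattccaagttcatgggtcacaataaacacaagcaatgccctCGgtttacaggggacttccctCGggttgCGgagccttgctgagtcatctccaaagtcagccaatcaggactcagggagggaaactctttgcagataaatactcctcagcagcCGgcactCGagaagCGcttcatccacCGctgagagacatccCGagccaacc
Cxcl9: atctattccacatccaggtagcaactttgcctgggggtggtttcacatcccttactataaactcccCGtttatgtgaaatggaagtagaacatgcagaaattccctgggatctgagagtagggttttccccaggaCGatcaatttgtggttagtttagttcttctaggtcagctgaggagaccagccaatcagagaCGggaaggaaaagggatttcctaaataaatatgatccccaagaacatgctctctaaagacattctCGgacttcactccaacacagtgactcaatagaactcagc
Ccr9: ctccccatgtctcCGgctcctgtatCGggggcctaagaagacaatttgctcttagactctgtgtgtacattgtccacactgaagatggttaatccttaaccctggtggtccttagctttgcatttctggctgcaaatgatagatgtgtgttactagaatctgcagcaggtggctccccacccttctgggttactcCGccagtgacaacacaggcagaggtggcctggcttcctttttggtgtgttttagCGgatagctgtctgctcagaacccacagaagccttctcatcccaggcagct

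The Cxcr4 promoter holds 20 CpGs, of which 13 were listed in at least 1 library, and it was almost free of methylation. Its level was 0% of 57 reads and 1.75% of 57 reads in FGR libraries, against 0% of 26 reads and 0% of 5 reads in control libraries. A count of 0 allows up to 5.26% in FGR replicate 1 and up to 9.68% over both control libraries, for counting error only. Ccl6 has only 2 promoter CpGs and these were also unmethylated wherever they were read, in 0 of 16 reads in FGR replicate 2 and in 0 of 29 reads in control libraries, which allows up to 18.8% and up to 10.3%. In the Ccl12 promoter both CpGs were at 0% in FGR libraries over 22 reads, which allows up to 13.6%, and neither was listed in a control library. Cxcl10 had 5 of its 10 promoter CpGs listed, in FGR replicate 2 alone, with 0 of 27 reads methylated.

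Ccr9 stood at the other end, with 97.1% over all reads, and Cxcl9 lay between, with 66.3%. The Cxcl9 promoter had 60% and 80% in FGR libraries, against 75% and 55.9% in control libraries, so the groups overlapped. Within that promoter the CpG at base 262, just after the start, had 100% in both FGR libraries and 100% and 83.3% in the control libraries. The CpG at base 67 had 20% and 40% in FGR libraries, against 60% and 40% in control libraries, at 5 reads each. Ccr9 had 90.5% and 100% in FGR libraries, against 100% in control replicate 2, and its promoter was not listed in control replicate 1. The 2 neighbouring CXC ligand genes of the same inducible class, Cxcl10 and Cxcl9, carried promoter CpGs at 0% and 66.3% over all reads, although Cxcl10 was read in 1 library only.

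Motifs were searched as letters on both strands of the 300-base promoters of 39 starts of 37 members, and a match is a description of the sequence only. A kB site, here GGGA and TTTCC with any 1 base between them, was found in 4 of 39 member promoters, those of Cxcl1, Cxcl2, Cxcl3 and Ccr3, which is 10.3%, against 0.411% of all 32851 promoters. Wider forms of the kB site were not searched, and Cxcl1, Cxcl2 and Cxcl3 lie close together on chromosome 5. An interferon response core, here TTTC, any 2 bases and TTTC, was present in 3 of 39 (Ccl19, Cxcl10 and Cxcl14), which is 7.69%, against 3.44% of all promoters. A TATAAA box was present in 12 of 39, or 30.8%, against 13.6% of all promoters. Member promoters held a median of 4 CpGs, against 7 for all promoters, and 23 of the 39 held fewer than 5.

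Methylation at gene starts was taken from 1500 bp before to 500 bp after the annotated start. Of the 39 member starts, 26 had 3 or more CpGs and 10 or more reads in each of the 4 libraries, 15 of ligands and 11 of receptors, and the description below covers these 26. Their median level was 64.2%, against 55.7% over all 22296 gene starts measured the same way. Cxcr4 was the lowest, with 0% and 3.91% in FGR libraries, against 5.61% and 0% in control libraries. Its ligand Cxcl12, which guides migrating neurons and immune cells, was next, with 8.99% and 6.51% in FGR libraries, against 20% and 11.3% in control libraries. Ackr3, the atypical receptor that removes Cxcl12, was the third, with 22.2% and 17.9% in FGR libraries, against 32.3% and 18.6% in control libraries. The 3 lowest of these 26 starts therefore belong to 1 ligand, its signalling receptor and its scavenger. This order depends on the filter. A Ccl25 start that also overlaps Elavl1 averaged 5.49% but was left out, with 2 CpGs in control replicate 2. Members without an annotated start could not be ranked. Cxcr4 and Cxcl12 did not overlap in their 4 libraries, while Cxcl12 and Ackr3 overlapped.

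The next low starts were those of Cxcl14, a constitutively expressed CXC ligand, and of Cx3cl1, the membrane-bound ligand of the microglial receptor Cx3cr1. Cxcl14 had 44.7% and 22.2% in FGR libraries, against 24.2% and 18.1% in control libraries. For Cx3cl1 the levels were 21.6% and 17.6% in FGR libraries, against 33.3% and 37.7% in control libraries. The groups did not overlap for Cx3cl1, and did for Cxcl14. At neither start was any CpG listed in all 4 libraries, and Cx3cl1 rested on 6 CpGs and 34 reads in FGR replicate 2. At the high end stood Ccr9, with 89.7% and 96.7% in FGR libraries, against 97.7% and 81.6% in control libraries. Ccr8, the receptor for Ccl1 on lymphocytes, had 85.4% and 83.5% in FGR libraries, against 81.4% and 85.7% in control libraries. Cxcl9 had 89.0% and 84.3% in FGR libraries, against 75.6% and 75% in control libraries, and thus all 26 starts ranged between 2.38% for Cxcr4 and 91.4% for Ccr9 as means of 4 libraries. The fourth and the fifth highest were Cxcl15, a lung CXC ligand at 80.6%, and Cxcr1, a receptor for neutrophil attractants at 80%.

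**Figure D1:**
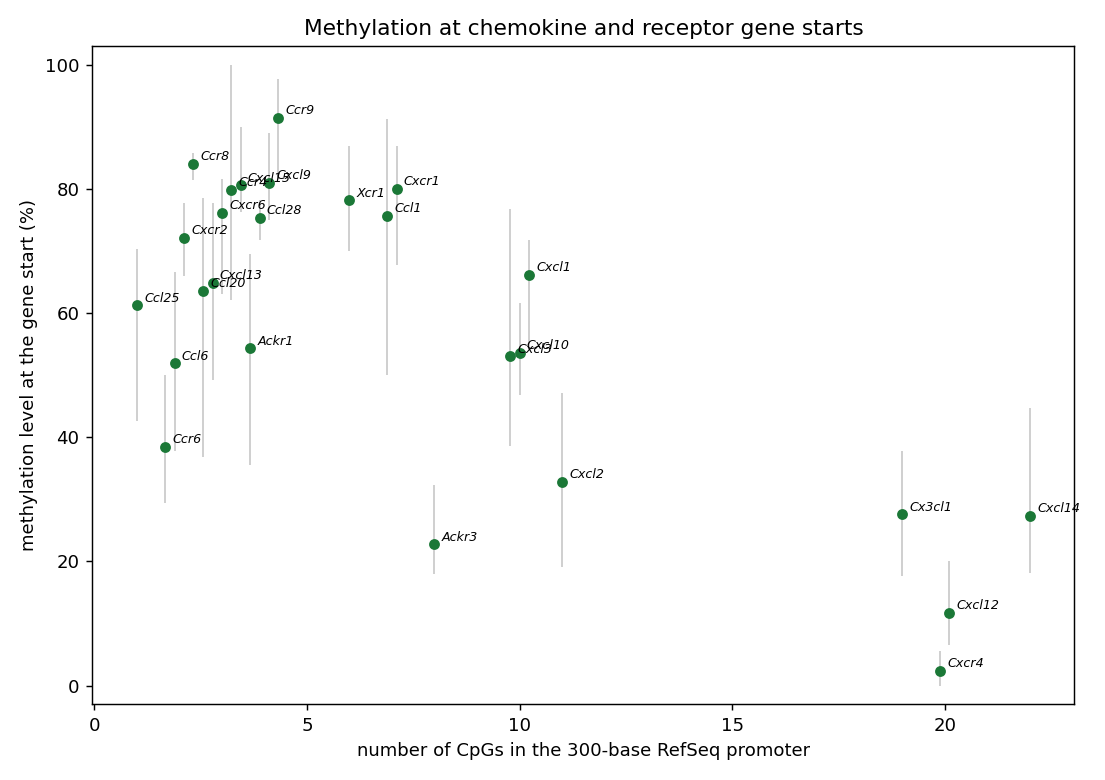
Methylation level at 26 member gene starts (vertical axis, % of reads; points are means of the 4 libraries and lines their lowest to highest value) against the number of CpGs in the 300-base RefSeq promoter (horizontal axis, with starts of equal number set slightly apart). Cxcr4 and Cxcl12, with 20 CpGs each, lie at 2.38% and 11.7%, while starts with few CpGs cover a wide range up to Ccr9 at 91.4%.

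Across these 26 starts the level was lower where the promoter held more CpGs, with Pearson's r = -0.75 and Spearman's rho = -0.49. The points share libraries and depth, and genes are not independent replicates, so no p is given. Starts with 2 CpGs in the promoter ranged from Ccr6, the Ccl20 receptor, at 38.4% to Ccr8 at 84.0%. The neutrophil attractants Cxcl1, Cxcl2 and Cxcl3, which share the kB letters and hold 10 or 11 CpGs, had start levels of 66.2%, 32.8% and 53.1%.

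Over whole gene spans the 51 measured members had a median level of 74.0%, against 74.5% over all 32460 spans measured. Every level averages over the cells of a library, so a mixture of methylated and unmethylated cells cannot be told apart from partial methylation within cells. The members' 5129 listed CpGs were mostly at 1 end or the other, with 975 CpGs (19.0%) at 20% or under and 2861 (55.8%) at 80% or over when the 4 libraries were summed. The lowest span was Ccr10, a skin and mucosal receptor, with 30.5% and 23.0% in FGR libraries, against 16.9% and 32.4% in control libraries, but it also covers parts of the neighbouring genes Plekhh3 and Cntnap1. Cxcr4 (chr1:128586199-128594299 with its flanks) followed, with 33.9% and 35.6% in FGR libraries, against 35.5% and 39.8% in control libraries. Of its 160 listed CpGs, 62.5% were at 20% or under.

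Receptors of inflammatory CC ligands on chromosome 9 were highly methylated. Ccr1, which binds Ccl3 and Ccl5, had 87.3% and 85.4% in FGR libraries, against 88.3% and 90% in control libraries, without overlap and with a difference of -2.79 points (unadjusted p = 0.45 in the quasi-binomial model). Ccr3, the eosinophil receptor, had 81.8% and 77.6% in FGR libraries, against 81.3% and 75.5% in control libraries, with overlapping groups.

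Among the ligands of Ccr1 the levels were further apart. Ccl3 had 29.7% and 45.5% in FGR libraries, against 35.9% and 52.1% in control libraries, and 56.3% of its 32 listed CpGs were at 20% or under. Ccl4, whose annotated span overlaps Ccl3, had 65.4% and 59.8% in FGR libraries, against 70.8% and 60.2% in control libraries. Ccl5, the T-cell attractant, was the highest of the 51 spans, with 91.4% and 93.3% in FGR libraries, against 92.1% and 93.0% in control libraries, and 90.4% of its 83 CpGs were at 80% or over. Ccl3 lay below Ccl5 in each of the 4 libraries.

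**Figure D2:**
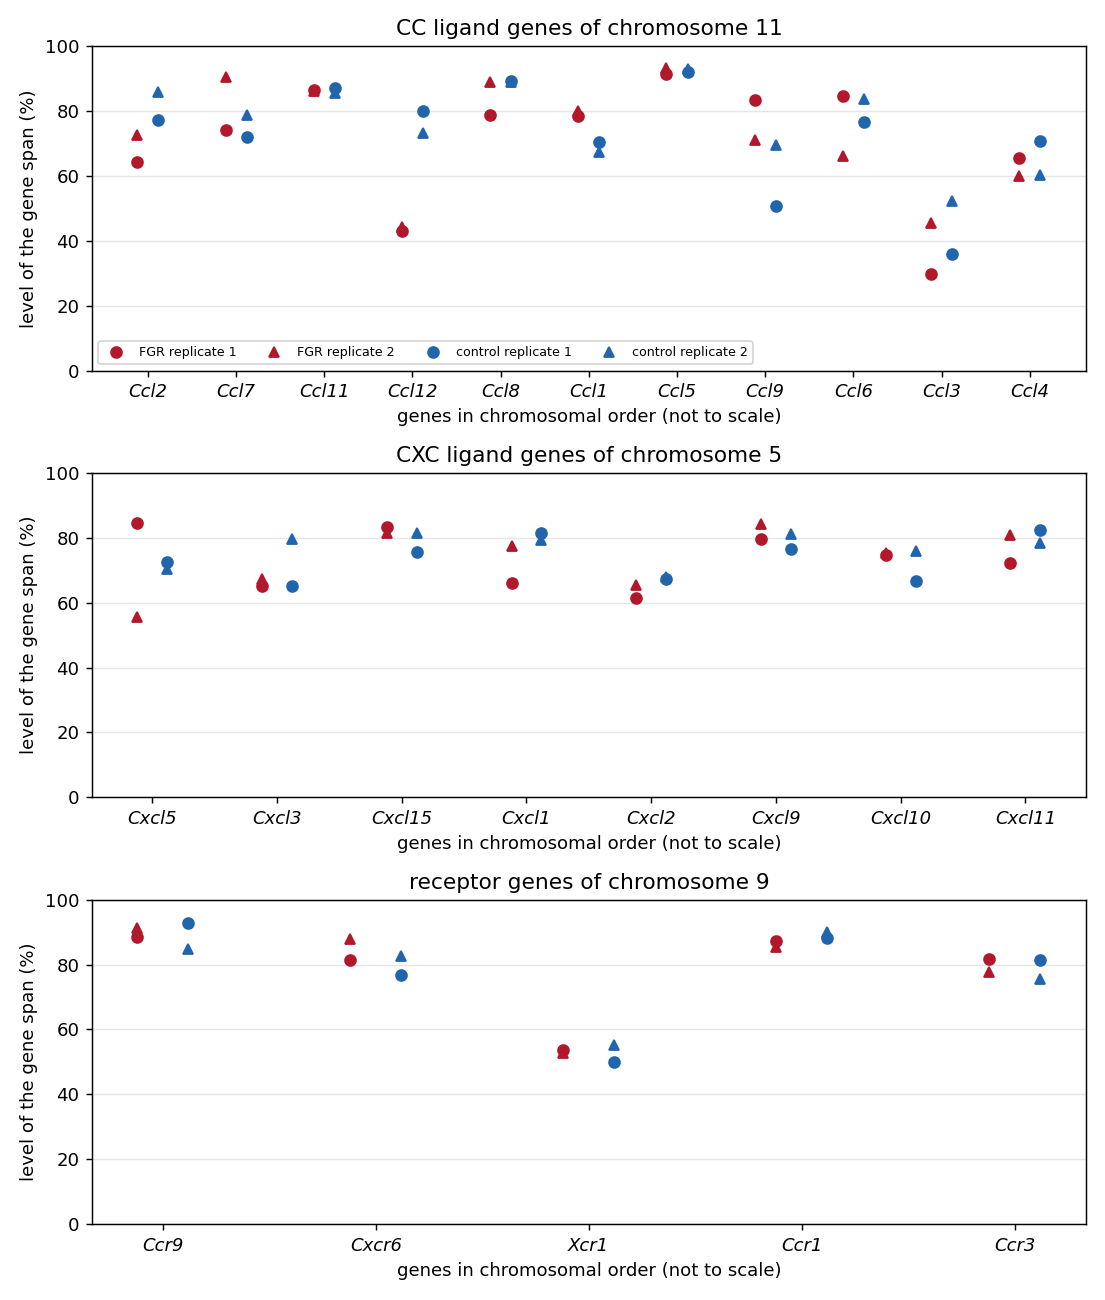
Methylation level of gene spans (vertical axis, % of reads) in chromosomal order for the CC ligand genes of chromosome 11, the CXC ligand genes of chromosome 5 and the receptor genes of chromosome 9, with 1 point per library (FGR left of control). Ccl3, Ccl12 in FGR libraries and Xcr1 lie low among neighbours, and Ccl5 lies above 91% in all 4 libraries.

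Neighbouring members were thus unlike each other. On chromosome 9 Xcr1, the receptor for Xcl1 on cross-presenting dendritic cells, had 53.6% and 52.9% in FGR libraries, against 50% and 55.1% in control libraries, between Cxcr6 and Ccr1, each above 75% in every library. A low part of the Xcr1 span was a tile that lies in the neighbouring genes Fyco1 and Gm51700. That tile had 0% in both FGR libraries, against 0% and 1.43% in control libraries. It held 27 listed CpGs, while 53 CpGs of the span were at 20% or under. On chromosome 5 the CXC ligands were closer to each other, with means of 4 libraries from 65.6% for Cxcl2 to 80.5% for Cxcl15.

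**Figure D3:**
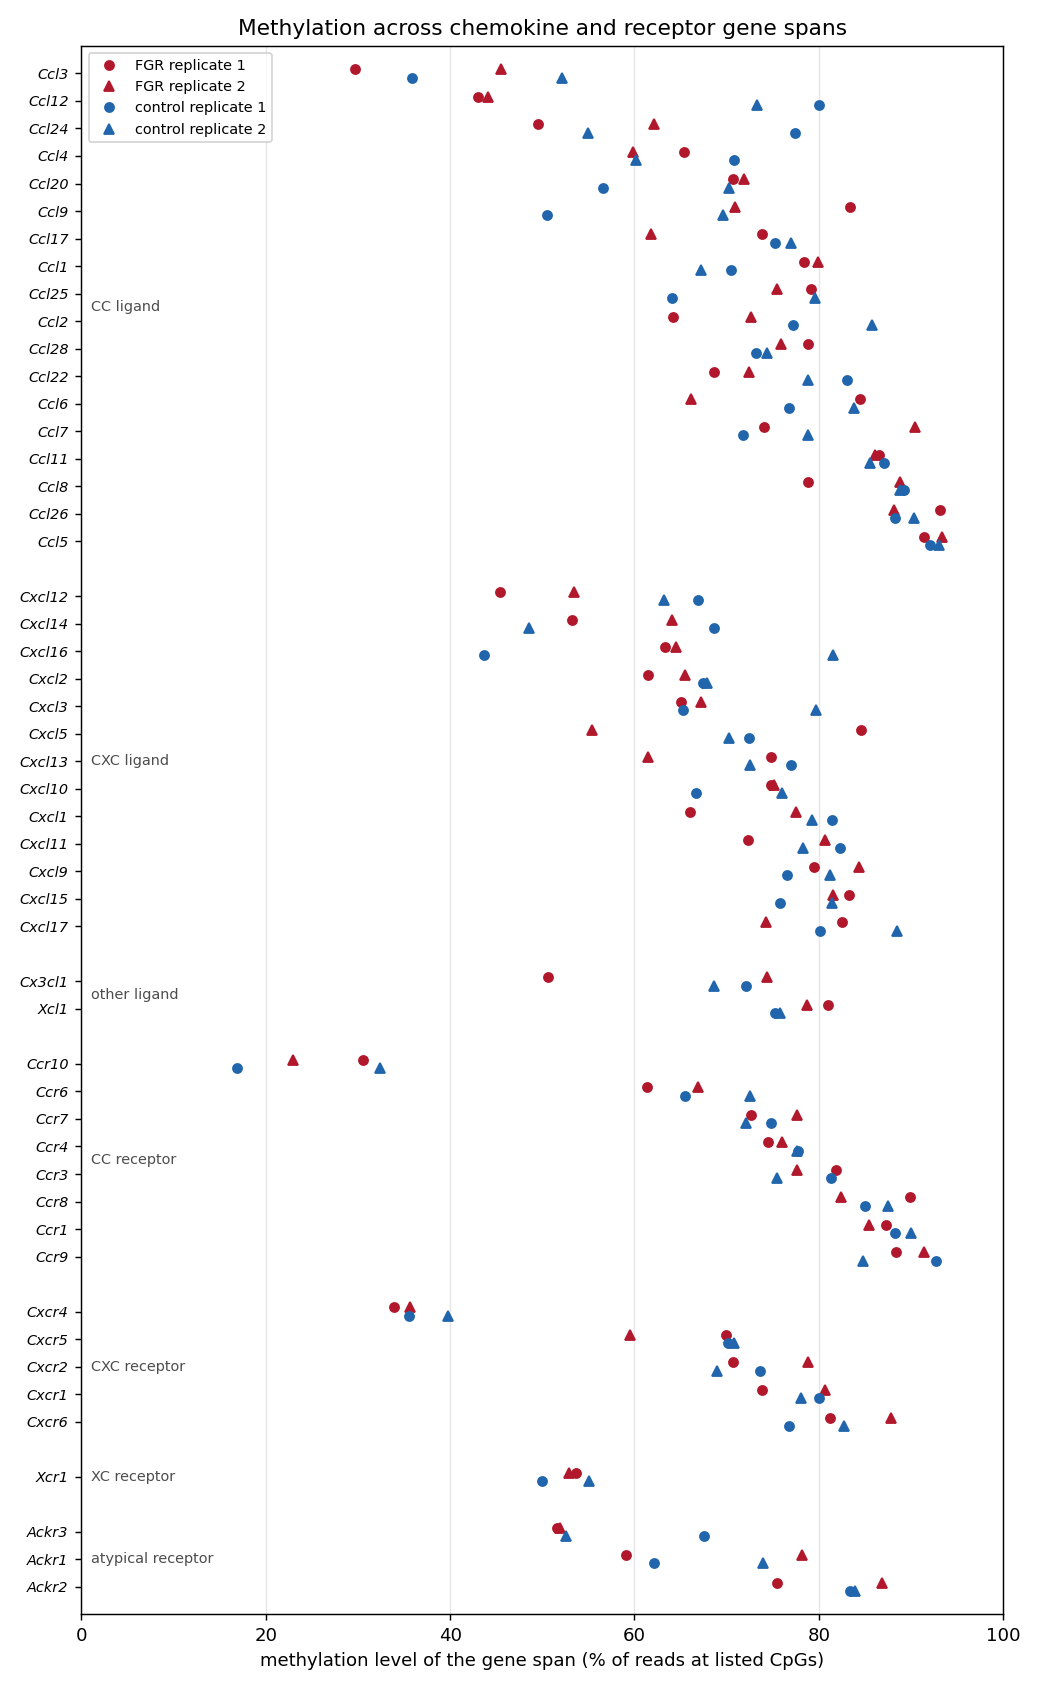
Methylation level of 50 of the 51 measured gene spans (horizontal axis, % of reads at listed CpGs), by role and, within a role, in order of the mean of the 4 libraries, with FGR points set above control points. Most spans lie between 60% and 90%, and the groups overlap for most members.

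Tiles of 1 kb located the unmethylated stretches. Of 185 tested tiles that overlap a member span, 12 were under 30% in all 4 libraries, which is 6.49%, against 1.76% of all 550538 tiles tested. They included 2 tiles each at Cxcr4, Cxcl12 and Ackr3, and 1 each at Cxcl14, Ccl25, Xcr1, Cxcl16 and the shared Ccl3 and Ccl4 stretch. The tile across the Cxcr4 start had 0% and 1.64% in FGR libraries, against 0% in both control libraries, and the next tile into the gene had 0% and 1.54% in FGR libraries, against 0% in both control libraries. The low tiles in the spans of Ccl25, a Ccr9 ligand, and Cxcl16, the membrane-bound Cxcr6 ligand, overlap the neighbouring genes Elavl1 and Med11.

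**Figure D4:**
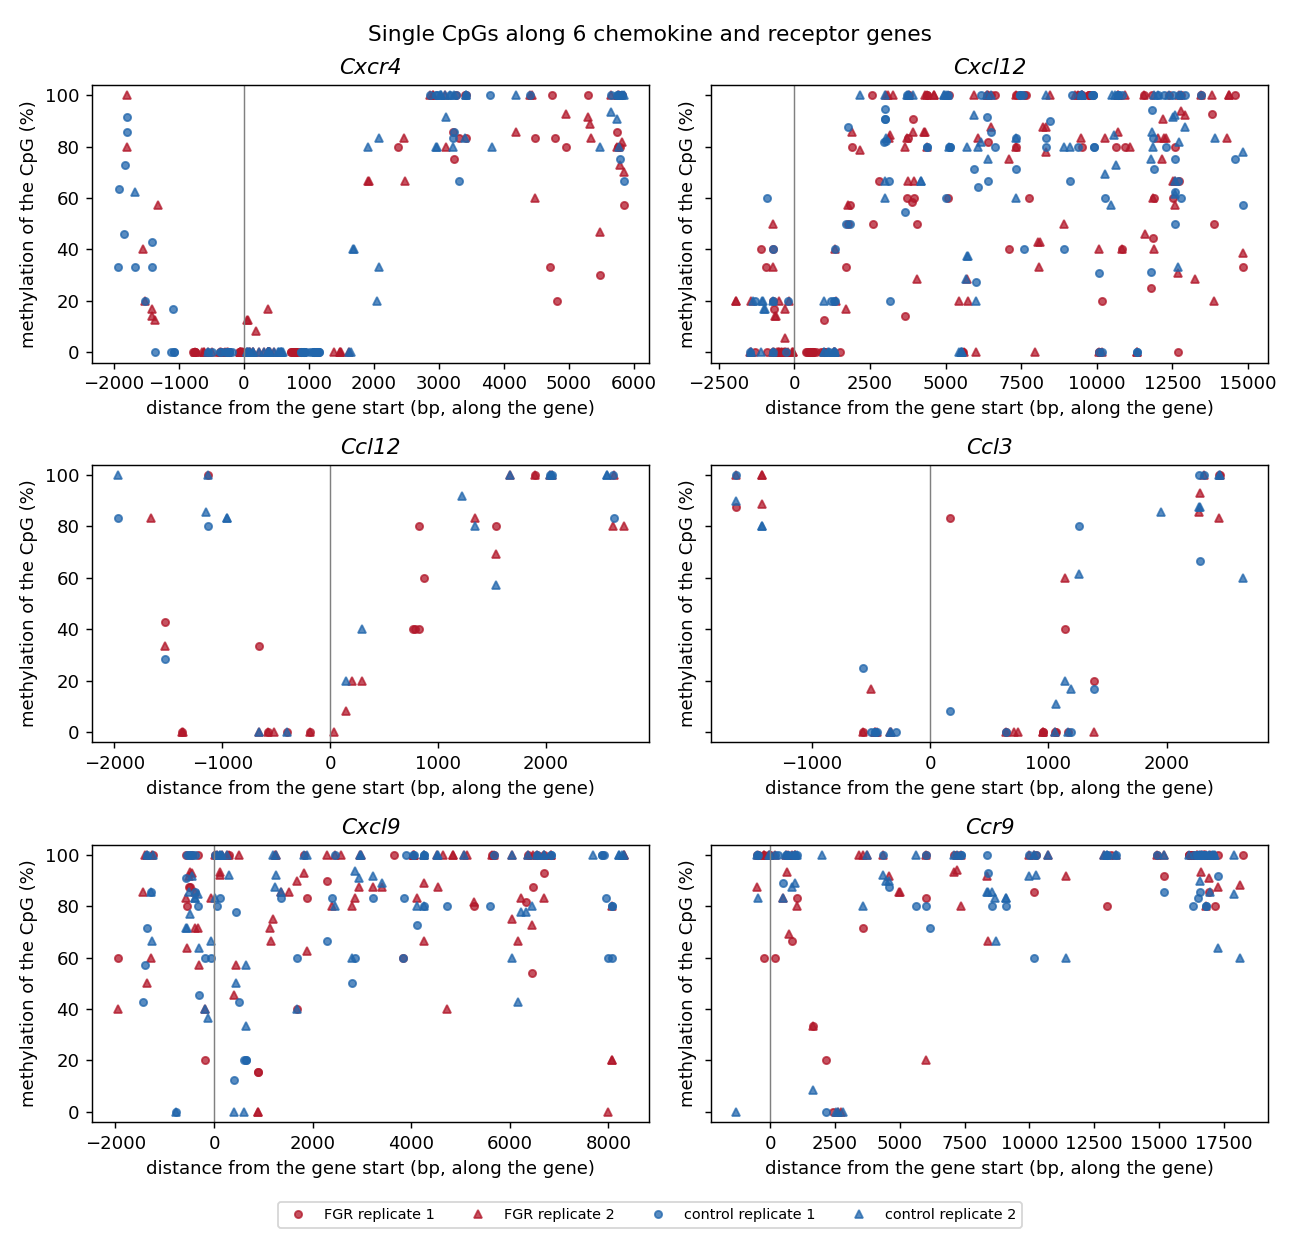
Methylation of single CpGs (vertical axis, %) against distance from the annotated start (horizontal axis, bp along the gene) for Cxcr4, Cxcl12, Ccl12, Ccl3, Cxcl9 and Ccr9, with 1 point per CpG and library. Cxcr4 has CpGs at or near 0% in all 4 libraries around its start, Cxcl12 and Ccl3 have low stretches beside methylated bodies, and Ccr9 is methylated at its start.

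For the comparison of FGR with control mice, no member span was called different, where a call in the quasi-binomial test required both an adjusted p under 0.05 and 10 points or more between the group means. This was 0 of 51 members, against 0% of all 32460 spans, and limma on log2 ratios also called none. Differences are given as FGR minus control, in percentage points. At an unadjusted p under 0.05 there were 2 of 51 members, Ccl12 and Cxcl12, which is 3.92%, against 6.23% of all spans. In limma the number was 4 of 51, with Ccl22 and Ccl1 besides. The 6.23% is the quasi-binomial share, and no limma share over all spans is given here. Leaving out 1 library gave 6 of 51 members without control replicate 2 (Ackr3, Cxcl12, Ccl25, Cxcl16, Ccl12 and Ccl9), 4 without FGR replicate 2, 3 without FGR replicate 1 and 2 without control replicate 1. Over all 32460 spans the same settings gave 1941, 3575, 2483 and 2003. The difference was negative in 31 members and positive in 20, against 62.1% negative over all spans, and the median was -1.35 points for members and -1.12 points for all spans. Without FGR replicate 1 the member median was -0.27 points. Both FGR libraries lay below both controls in 12 of 51 members, against 25% of all spans, and above both in 6, against 11.1%.

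Ccl12 had the largest negative difference. Its span (chr11:82099845-82105399 with flanks) had 43.0% and 44.1% in FGR libraries, against 80% and 73.3% in control libraries. The means were 43.6% ± 0.79 in FGR and 76.6% ± 4.75 in control libraries (SD, n = 2 each), a difference of -33.0 points with an unadjusted p = 0.0021 and an adjusted p = 0.731 in the quasi-binomial model. The groups did not overlap, but none of its 35 listed CpGs was listed in all 4 libraries, and control replicate 1 rested on 7 CpGs and 40 reads. At its start window the level was 21.9% and 3.53% in FGR libraries, against 80% and 54.5% in control libraries, where control replicate 1 rested on 1 CpG, so this start did not pass the filter. That window supplied 40.5% and 45.2% of the span's reads in FGR libraries, against 12.5% and 37.9% in control libraries. Outside the start window the level was 57.4% and 77.7% in FGR libraries, against 80% and 84.7% in control libraries, a difference of -14.8 points. At the 13 CpGs listed in both groups it was 57.5% over FGR reads and 67.3% over control reads.

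Cxcl12 (chr6:117166535-117183368 with flanks) had 45.5% and 53.4% in FGR libraries, against 66.9% and 63.2% in control libraries. Its means were 49.4% ± 5.62 in FGR and 65.0% ± 2.60 in control libraries (SD, n = 2 each), a difference of -15.6 points with an unadjusted p = 0.017 and an adjusted p = 0.763. The unmethylated start window supplied 14.4% and 24.0% of the reads in FGR libraries, against 6.02% and 9.38% in control libraries. Outside it the level was 51.6% and 68.2% in FGR libraries, against 69.9% and 68.6% in control libraries, and the 16 CpGs listed in all 4 libraries gave -5.14 points with an unadjusted p = 0.26. At the 87 CpGs listed in both groups it was 60.3% in FGR and 63.5% in control reads.

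The other ligands with large negative differences were Ccl2, Ccl22, Ccl24 and Cxcl1. Ccl2, the main monocyte attractant, had 64.2% and 72.7% in FGR libraries, against 77.2% and 85.7% in control libraries, a difference of -13.0 points (unadjusted p = 0.078). Ccl22, a Ccr4 ligand of macrophages, had 68.6% and 72.4% in FGR libraries, against 83% and 78.8% in control libraries. The groups did not overlap for either gene. For the eosinophil attractant Ccl24 the levels were 49.5% and 62.1% in FGR libraries, against 77.4% and 55.0% in control libraries, which overlap. Cxcl1 had 66.0% and 77.5% in FGR libraries, against 81.4% and 79.3% in control libraries. At CpGs listed in all 4 libraries Ccl2 gave -13.2 points, Ccl24 1.22 points and Cxcl1 -2.27 points, over 3 or 4 CpGs each.

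The largest positive differences were in Ccl9, Ccl1, Ccl20, Ccl7, Ccl25 and Cxcr6. Ccl9, a macrophage CC ligand found in mice, had 83.4% and 70.9% in FGR libraries, against 50.6% and 69.6% in control libraries, a difference of 17.1 points (unadjusted p = 0.12) in which control replicate 1 stood apart. At the 4 Ccl9 CpGs listed in all 4 libraries the difference was -3.43 points. Ccl1, the Ccr8 ligand, had 78.3% and 79.9% in FGR libraries, against 70.4% and 67.3% in control libraries, a difference of 10.3 points (unadjusted p = 0.072). Ccl20, which acts through Ccr6, had 70.7% and 71.9% in FGR libraries, against 56.6% and 70.2% in control libraries. The monocyte attractant Ccl7 had 74.0% and 90.4% in FGR libraries, against 71.8% and 78.8% in control libraries. Ccl25 differed by 5.47 points and Cxcr6, the Cxcl16 receptor, by 4.74 points, with overlapping groups in both. At CpGs listed in all 4 libraries Ccl25 gave -6.54 points over 20 CpGs (unadjusted p = 0.056 in the quasi-binomial model), with the FGR libraries below the controls, and Cxcr6 gave -1.59 points over 8 CpGs. Ccl20 gave 10.9 points on that set.

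Among the remaining brain-related members, Cx3cl1 had 50.7% and 74.4% over its span in FGR libraries, against 72.1% and 68.6% in control libraries. FGR replicate 1 stood low there, and 61.8% of its reads came from the less methylated start, against 6.45% in FGR replicate 2 and 13.4% and 14.3% in control libraries. Outside the start window the level was 97.7% and 78.3% in FGR libraries, against 78.1% and 73.8% in control libraries, a difference of 12 points, where the whole span gave -7.86 points. At the 61 CpGs listed in both groups it was 81.9% in FGR and 79.4% in control reads. Cxcl16 had 63.3% and 64.5% in FGR libraries, against 43.7% and 81.5% in control libraries, the widest spread between controls among the 51 spans. Cxcl10 had 74.8% and 75.2% in FGR libraries, against 66.7% and 76.0% in control libraries. The Ackr3 span had 51.6% and 51.9% in FGR libraries, against 67.5% and 52.5% in control libraries.

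The lymphoid members lay near the middle of the family. Cxcl13, the B-cell attractant, had 74.8% and 61.5% in FGR libraries, against 77.0% and 72.5% in control libraries. Its receptor Cxcr5 had 69.9% and 59.5% in FGR libraries, against 70.2% and 70.8% in control libraries. Ccr7, which guides cells into lymph nodes, had 72.6% and 77.6% in FGR libraries, against 74.8% and 72.1% in control libraries. Only Cxcr5 of these had groups without overlap. The Ccr4 ligand Ccl17 had 73.9% and 61.8% in FGR libraries, against 75.2% and 77.0% in control libraries, and Ccr4 itself had 74.5% and 76.0% in FGR libraries, against 77.8% and 77.6% in control libraries.

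The scavenger receptors Ackr1 and Ackr2 differed more between the FGR replicates than between the groups. Ackr1, which carries chemokines across endothelium, had 59.1% and 78.2% in FGR libraries, against 62.1% and 74.0% in control libraries. Ackr2, which degrades inflammatory CC ligands, had 75.5% and 86.8% in FGR libraries, against 83.4% and 84.0% in control libraries. Among the Ccr3 ligands, Ccl11 had 86.5% and 86.0% in FGR libraries, against 87.1% and 85.6% in control libraries, with little spread. Ccl26, another eosinophil attractant, had 93.2% and 88.1% in FGR libraries, against 88.3% and 90.3% in control libraries. Cxcl5 had 84.5% and 55.4% in FGR libraries, against 72.4% and 70.2% in control libraries, the widest spread within the FGR group. The interferon-induced Cxcl11 had 72.3% and 80.7% in FGR libraries, against 82.3% and 78.3% in control libraries. The annotation lists Cxcl11 as a transcribed pseudogene, and its span also covers parts of Art3 and Gm2673.

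Summed over CpGs, ligand genes had 71.5% and 72.5% in FGR libraries, against 72.2% and 74.5% in control libraries, a difference of -1.38 points. Receptor genes had 65.4% and 69.8% in FGR libraries, against 69.3% and 69.7% in control libraries, a difference of -1.86 points. Ligand means were 72.0% ± 0.68 in FGR and 73.4% ± 1.63 in control libraries, and receptor means 67.6% ± 3.11 in FGR and 69.5% ± 0.34 in control libraries (SD, n = 2 each). Over all autosomal CpGs the difference was -1.05 points. Single libraries moved these values, since the receptor difference was 0.34 points without FGR replicate 1 and the ligand difference -0.23 points without control replicate 2.

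At the 322 member CpGs listed in all 4 libraries the sites were the same in each library. Receptors had 73.2% and 75.5% there in FGR libraries, against 78.8% and 77.6% in control libraries, a difference of -3.88 points without overlap. Ligands had 82.1% and 79.8% in FGR libraries, against 80.4% and 81.6% in control libraries, a difference of -0.10 points. With spans limited to these CpGs, 38 members could be tested and none was called, against 0.00757% of all spans, or 2 of 26423. An unadjusted p under 0.05 was found for Cxcr2 and Ccl1, 2 of 38, against 5.68% of all spans. The difference was negative in 24 of 38, against 53.7% of all spans, with a median of -2.70 points for members and -0.30 for all spans. Cxcr2, the receptor for Cxcl1, Cxcl2, Cxcl3 and Cxcl5, averaged 71.6% in FGR and 82.4% in control libraries over 11 CpGs (unadjusted p = 0.042, adjusted p = 0.855). Ccl1 averaged 94.2% in FGR and 82.0% in control libraries over 5 CpGs (unadjusted p = 0.011, adjusted p = 0.809). For 15 of the 38 members, Cxcr2 among them, the sign was the opposite of that over all listed CpGs.

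**Figure D5:**
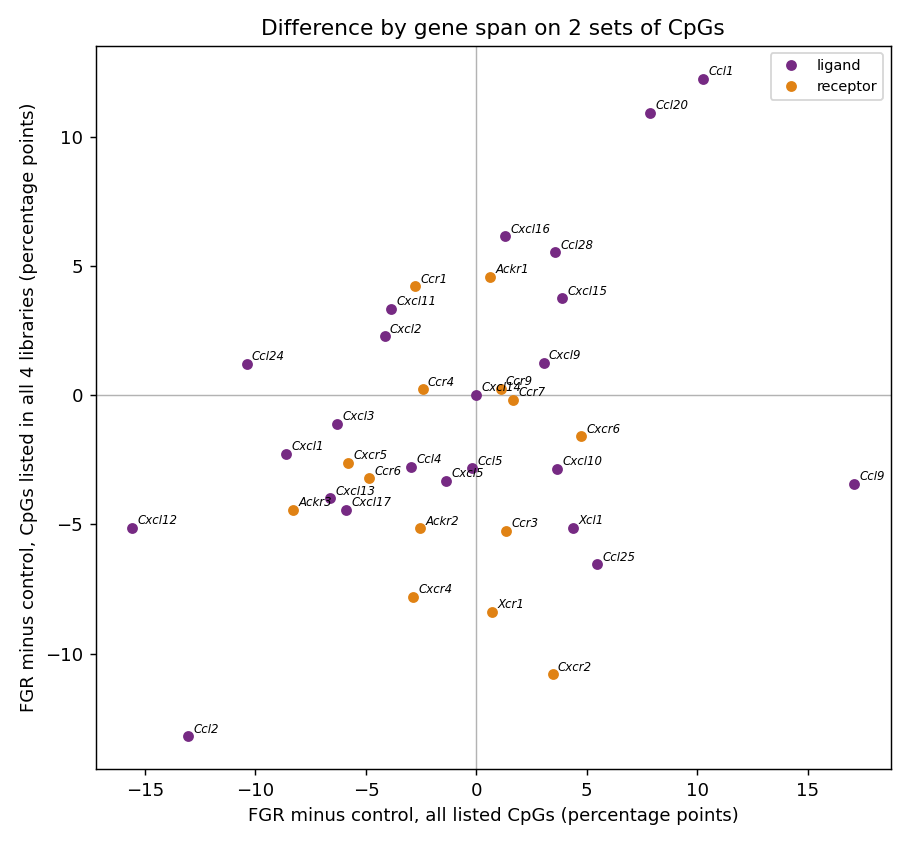
Difference in span level, FGR minus control in percentage points, over all listed CpGs (horizontal axis) and over CpGs listed in all 4 libraries (vertical axis) for 37 of the 38 members tested on both, by side of the ligand and receptor pair. Ccl1 and Ccl20 are positive and Ccl2 and Cxcl12 negative on both sets, while Ccl9 and Cxcr2 change sign.

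Gene starts gave no call either, in 0 of 26 member starts, against 0% of all starts, and limma called none. The start of Ccl1 alone had an unadjusted p under 0.05 in the quasi-binomial test, 1 of 26, against 6% of all starts in that test. Limma also had 1, the same start, and no limma share over all starts is given here. It had 87.9% and 91.2% in FGR libraries, against 73.6% and 50% in control libraries, a difference of 27.8 points (unadjusted p = 0.046, adjusted p = 0.824) that rested on 4 CpGs in control replicate 2. The difference was negative in 12 of 26 starts, against 54.4% of all starts, and the median was 0.62 points for members and -0.93 for all. The low starts of Cxcr4 and Cxcl12 differed by -0.85 and -7.91 points, with unadjusted quasi-binomial p-values of 0.85 and 0.27.

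None of the 185 member tiles was called, against 0.0151% of all tiles, or 83 of 550538, and limma called none. An unadjusted p under 0.05 was found for 9 of 185 tiles by the quasi-binomial test, against 5.29% of all tiles by that test. By limma there were also 9, and the limma count over all tiles is given below with the processing alternatives. The difference was negative in 91 of 185 tiles, against 51.8% of all tiles. A tile overlapping Cxcl17, a mucosal chemokine, and 4732471J01Rik (chr7:25406001-25407000) had the smallest p of these and is named for that after its values were seen. It had 54.2% and 52.9% in FGR libraries, against 85.2% and 95.8% in control libraries, with an unadjusted p = 0.00036 and an adjusted p = 0.248. Only 1 of its CpGs was listed in both groups, and it had 100% in each. A tile downstream of Cxcl3 (chr5:90789001-90790000) had 46.2% and 25.3% in FGR libraries, against 43.1% and 73.2% in control libraries, an overlap between FGR replicate 1 and control replicate 1 (unadjusted p = 0.0032, adjusted p = 0.556). At the 12 CpGs of that tile listed in both groups the level was 33.3% of 108 FGR reads and 56.6% of 122 control reads. The stretch shared by Ccl3 and Ccl4 (chr11:83648001-83649000) had 3.64% and 7.14% in FGR libraries, against 25% and 23.4% in control libraries. At the 5 CpGs of that stretch listed in both groups the level was 10.2% in FGR and 6.06% in control reads. Ccl1 had 2 such tiles, with differences of 15.1 and 29.2 points. Cxcr2, Ackr3, Ccr4 and Cxcl14 had 1 each, with differences of 18.2, -21.9, -13.3 and 27.5 points. At CpGs listed in both groups the Ccl1 tiles had 82.6% and 90% in FGR reads, against 70.8% and 83.3% in control reads. Likewise Cxcr2 had 87.2% against 80.8%, Ackr3 82.9% against 93.2%, Ccr4 88% against 94.9% and Cxcl14 86.7% against 78.3%. These levels rested on 2 to 11 CpGs per tile.

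The downstream pathway was represented by 29 genes for G proteins, kinases, arrestins, guanine exchange factors, proteases that shed membrane-bound chemokines, and further ligands and receptors. The difference in span level was negative in 23 and positive in 6 of the 29, against 62.1% negative over all spans, none was called, and the median was -2.30 points, against -1.12 points for all spans. Rgs1, Rgs2 and Elmo1 had an unadjusted p under 0.05, 3 of 29, against 6.23% of all spans. Rgs1, which shortens signalling of chemokine receptors through their G proteins, had 54.0% and 50.7% in FGR libraries, against 80.6% and 66.8% in control libraries (unadjusted p = 0.020, adjusted p = 0.769). Rgs2, a related regulator, had 25.3% and 26.6% in FGR libraries, against 37.4% and 37.5% in control libraries (unadjusted p = 0.042, adjusted p = 0.792). The groups did not overlap for either. At 18 measured starts of 15 of these genes, 9 differences were negative and 9 positive, and none was called.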

How the data were processed

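Whole-genome bisulfite sequencing was done on hippocampal microglia in 2 FGR and 2 control libraries. Tools and build per the submitters' processing notes are mm10, Trim Galore 0.6.5, methylKit 1.28.0 and Bismark without a version. Parameters were not given in the sources used here. The deposited coverage is a count of reads per CpG cytosine and strand, and freqC and freqT are, per the file headers, the percent of reads with C and with T. The lowest deposited coverage is 5, so which CpGs are listed depends on depth.

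Strands were summed per CpG, and in each library the top 0.1% of CpGs by coverage was dropped. A level is the percent of a region's reads that are methylated, so 1 read over several CpGs counts several times. Spans, gene starts and 1 kb tiles holding 3 CpGs and 10 reads or more in each library were fitted over all genes by quasi-binomial regression on group. Overdispersion was shrunk by limma 3.58.1 (squeezeVar, R 4.3.3) with a floor of 1, and p-values were adjusted by Benjamini-Hochberg over all regions. The fits were tested on simulated data. Alternatives were CpGs listed in all 4 libraries, read minimums, no coverage maximum, no flank, limma on log2 ratios with 0.5 added to both counts, a replicate block, and leaving out each library.

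Gene spans, starts and promoter sequences came from RefSeq GRCm38.p6, and 155500 of 155500 listed CpGs in promoters fell on CG in the sequence. Of the members, 37 had a promoter entry and 15 had none, so their starts were not analysed here. Members and lists were chosen with earlier results of these data known. Genes given in full are 13 microglial or brain chemokine genes, the 6 spans with the largest difference in each direction, members with an unadjusted p under 0.05 for a span, a start or a tile of 5 or more CpGs per library, and the 5 lowest and highest starts. Others (Ccr10, Ccl6, Cxcl17, Xcr1, Cxcr2 and the like) were named after their values were seen. Values of 1 member are not reported here, although it is counted in the totals.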

Additional observations from a re-analysis of the deposited data

How the results depend on the processing

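No member span or start was called under any alternative. Among all spans, 2 were called on CpGs listed in all 4 libraries, and 0 to 196 when 1 library was left out, the 196 without FGR replicate 2. Among all tiles, 83 were called as reported, against 0 on CpGs listed in all 4 libraries, 3 with at least 10 reads per CpG, 26 with at least 30 reads per region, 0 with limma (25626 at an unadjusted p under 0.05) and 1904 to 2151 when 1 library was left out. The Cxcl17 tile was called without FGR replicate 1 or control replicate 1, the Cxcl3 tile likewise, and 1 Cxcr5 tile without control replicate 1 and another without control replicate 2. The cause was not tested. The median member difference of -1.35 points was -2.70 on CpGs listed in all 4 libraries, 0.56 with at least 10 reads per CpG (23 members), -0.19 with lettered symbols added after seeing the data, and between -1.84 and -0.27 with 1 library left out. The ligand difference of -1.38 points was 0.91 on CpGs listed in at least 1 library of each group, an alternative also chosen after seeing the data, and between -2.53 and -0.23 with 1 library left out. For receptors, leaving out 1 library gave values from -4.06 to 0.34. Cxcl12 had an unadjusted p above 0.05 under 4 alternatives, with -5.14 to -13.8 points. Same-numbered libraries deviated together with correlations of 0.021 for spans, 0.010 for starts and 0.0021 for tiles. The libraries were mostly read at different CpGs, so these values cannot show whether the numbers pair them. With a replicate block 0 spans, 0 starts and 1391 tiles were called, the Cxcl17 tile among them. No member start could be tested with at least 10 reads per CpG. Depth and the deposited minimum of 5 reads limit every value.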

Other observations

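At single CpGs listed in all 4 libraries, 322 in member spans, the median difference was 0 points, with 156 negative, 120 positive and 46 equal. Both FGR libraries lay below both controls at 36 of them and above both at 31. Shares over all CpGs listed in all 4 libraries were not counted, so these counts have no background beside them. In the gene for Cxcr2, the neutrophil receptor, a CpG in the span had 20% and 40% in FGR libraries, against 60% and 70.0% in control libraries, at 5 to 15 reads. A Ccl28 CpG had 80% and 66.7% in FGR libraries, against 36.4% and 35.3% in control libraries, in the gene for a mucosal Ccr10 ligand. Both were chosen after their values were seen and were not tested.

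Some members were methylated throughout. Xcl1, the lymphocyte ligand of Xcr1, Cxcl15, Ccl11, an eosinophil attractant, and Ccl8, a monocyte attractant, had no CpG at 20% or under among 65, 60, 50 and 28 listed CpGs.

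Among genes outside the family, 6 starts of microglial markers were measured, with 3 negative differences, 2 positive and 1 of 0. Fcrls had 11.5 points and P2ry12 0.81 points. The start of the marker Siglech had 13.3% and 40% in FGR libraries, against 71.6% and 93.3% in control libraries (unadjusted p = 0.016, adjusted p = 0.762 in the quasi-binomial model). The start of Elmo1, which activates Rac downstream of chemokine receptors, had 58.5% and 62.4% in FGR libraries, against 90.4% and 80.7% in control libraries (unadjusted p = 0.022, adjusted p = 0.762). The start of Gnai3, a G-protein subunit, had 42.5% and 43.2% in FGR libraries, against 27.5% and 15.4% in control libraries (unadjusted p = 0.022, adjusted p = 0.762).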
